A study of Mus musculus with 2 samples.

Results

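The 59 genes described here encode the replication-dependent histones of the mouse, the proteins that package newly made DNA. They were taken as every gene whose symbol names an H1 linker histone of the cluster type (H1f1 to H1f5) or an H2ac, H2bc, H3c or H4c gene, with at least 50 UMIs over both libraries. A UMI, or unique molecular identifier, counts 1 captured transcript. Such a symbol was held by 64 of 56748 genes, and 59 passed the floor: 5 of the H1, 16 of the H2A, 15 of the H2B, 11 of the H3 and 12 of the H4 family. The genes just inside the floor were H2ac14 with 189 UMIs, annotated as an unprocessed pseudogene, and H2ac23 with 425. Those outside it were H2ac19 with 8, H2bc23 with 4, H2ac1 with 3, H2bc1 with 2 and H3c14 with 0 UMIs. All values are CPM, the UMIs of a gene scaled to a total of 1000000 UMIs in the same cells, and each UMI is a tag from near a transcript's 3′ end, so the value is not divided by gene length.

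Bone marrow cells left after an antibody kit had removed lineage-positive cells came from Nat10 cKO mice, which carry a conditional knockout, and from wild-type (WT) mice, both C57BL/6. NAT10 writes the RNA mark ac4C, an acetyl group on cytidine, and the study asked how blood stem cells are maintained and differentiate without it. Each genotype had 1 droplet-based 3′ library. The series text names 5 mice, no cell can be assigned to a mouse, and the labels give neither the Cre driver, the deleted exons nor the age. With 1 library per genotype there is no replicate check and no test between genotypes, and every interval, at 95%, covers counting error only.

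After filtering, the Nat10 cKO library held 11239 barcodes with 267401978 UMIs and the WT library 12537 barcodes with 284447821 UMIs. The median barcode had 21119 UMIs and 5062 genes in the cKO and 18600 UMIs and 4914 genes in the WT library. Of the kept barcode sequences 40 occurred in both libraries. Nat10 mRNA itself was 38.6 CPM in the cKO and 47.1 CPM in the WT library, a log2 ratio of -0.29 (-0.32 to -0.25). Since the tags lie at the 3′ end and the deleted part is not given, this checks the label only in part. Cells were sorted into 46 clusters built without histone, S phase and G2 and mitosis genes. Markers named all but 12 of these, into 16 classes, and 12 classes had at least 50 cells in both libraries. Beside HSC/MPP-like cells, whose leading genes included Mecom, Hlf and Cd34, they included erythroblast-like, plasma-like and T, NK and innate lymphoid-like cells, so the lineage-depleted cells were not progenitors alone.

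Replication-dependent histone genes lie in clusters, carry almost no introns and are transcribed in S phase, when NPAT and its partners assemble at the histone gene clusters in a nuclear body. Their mRNAs normally end in a short stem-loop in place of a poly(A) tail. The stem-loop-binding protein SLBP binds it, and the mRNAs are degraded when replication ends. In differentiating cells some of these genes are known to give polyadenylated mRNAs as well. The 3′ kit primes on adenine runs, so the UMIs count molecules with such a run, and what share of all histone mRNA they represent was not measured.

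The stem-loop is the sequence that sets this mRNA class apart. The transcripts of GENCODE release M21 hold all 59 gene IDs. In them 40 members had a 6-base stem around a 4-base loop that matched the known histone pattern. The other 19 had none in any annotated transcript, H1f5, H1f1, H2bc4 and H2bc21 among them. Some of these 19 have short annotated transcripts, of 393 bases in H2ac22, 381 in H2bc15 and 312 in H4c12. A stem-loop past an annotated end could not be found here, so the 19 are not shown to lack one. The 8 lines give highly counted members of each family but H2B and those with the most particular patterns. They read 5′ to 3′ from the transcript with U written as T. The capitals mark the 16 bases of the stem-loop.
H1f4: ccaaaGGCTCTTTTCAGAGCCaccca
H2ac8: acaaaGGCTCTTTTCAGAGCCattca
H2ac24: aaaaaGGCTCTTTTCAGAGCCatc
H2ac6: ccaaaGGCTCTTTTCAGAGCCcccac
H3c3: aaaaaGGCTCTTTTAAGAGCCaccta
H4c4: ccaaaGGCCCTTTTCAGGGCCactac
H4c6: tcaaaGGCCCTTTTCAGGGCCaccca
H4c2: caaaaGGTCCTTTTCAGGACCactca
The same 16 letters stood in 3 H1, 8 H2A, 7 H2B and 4 H3 members, and the H4 lines differ from the others in the stem. The annotation let the transcript run on past the stem-loop by 2010 bases in H2ac6, 1153 in H1f4, 840 in H1f2 and 770 in H4c4, but by 3 in H2ac24 and 33 in H4c6. The 18 members with 100 or more bases annotated after the stem-loop had a median of 57.2 CPM in the cKO and 50.9 CPM in the WT library. The 22 members with fewer had a median of 19.2 CPM in the cKO and 21.1 CPM in the WT library, and the 19 with no stem-loop annotated one of 25.3 CPM in the cKO and 22.7 CPM in the WT library. Levels within a group varied widely, and H2ac24, the third highest member, is among those with few bases after the stem-loop.

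The promoters of the members share short motifs. In the 300-base windows that RefSeq gives (GRCm38.p6, 250 bases before to 50 after the start, 53 windows for 52 members), CCAAT or its reverse complement stood in 84.9% of member windows and in 37.4% of all 32851 windows. By family it stood in every H1, H2A, H2B and H3 window but in 27.3% of the H4 windows. The H4 windows held GGTCCG or its reverse complement in 90.9%, against 8.25% of all windows. The octamer ATTTGCAT, searched on both strands, stood in 33.3% of the H2A and 46.2% of the H2B windows, in 0 of the H1, H3 and H4 windows and in 1.74% of all windows. TATAAA stood in 60.4% of member and 13.6% of all windows, and AAACACA in 80.0% of the H1 and 7.18% of all windows. These are matches of letters, not shown to be bound. The 5 windows printed are those of the most counted H1 (H1f5) and H2A (H2ac8) members, of the member with the steepest order by S phase (H4c6), of one that runs against it (H2ac6) and of the H3 member with the most UMIs (H3c3). They lie on the minus strand at chr13:21780576-21780875 (H1f5), chr13:23571171-23571470 (H2ac8), chr13:23551619-23551918 (H4c6), chr13:23683910-23684209 (H2ac6) and chr13:23745472-23745771 (H3c3), and capitals mark the motif letters on either strand.
H1f5: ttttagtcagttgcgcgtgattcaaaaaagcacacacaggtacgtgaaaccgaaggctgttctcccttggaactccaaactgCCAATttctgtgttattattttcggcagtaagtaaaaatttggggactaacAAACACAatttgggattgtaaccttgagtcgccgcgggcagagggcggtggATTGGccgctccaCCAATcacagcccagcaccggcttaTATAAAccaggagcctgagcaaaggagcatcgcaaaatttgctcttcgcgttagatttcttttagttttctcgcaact
H2ac8: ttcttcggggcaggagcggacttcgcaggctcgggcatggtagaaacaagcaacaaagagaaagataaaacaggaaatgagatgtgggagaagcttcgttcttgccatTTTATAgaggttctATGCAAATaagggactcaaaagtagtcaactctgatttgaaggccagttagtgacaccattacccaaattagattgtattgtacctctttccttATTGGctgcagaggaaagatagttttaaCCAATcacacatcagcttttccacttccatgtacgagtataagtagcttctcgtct
H4c6: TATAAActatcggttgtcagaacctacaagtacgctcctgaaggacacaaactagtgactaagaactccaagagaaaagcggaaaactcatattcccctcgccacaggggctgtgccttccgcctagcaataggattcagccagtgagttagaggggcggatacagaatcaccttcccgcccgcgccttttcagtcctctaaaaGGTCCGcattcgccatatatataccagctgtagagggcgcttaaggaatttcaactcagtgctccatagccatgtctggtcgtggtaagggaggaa
H2ac6: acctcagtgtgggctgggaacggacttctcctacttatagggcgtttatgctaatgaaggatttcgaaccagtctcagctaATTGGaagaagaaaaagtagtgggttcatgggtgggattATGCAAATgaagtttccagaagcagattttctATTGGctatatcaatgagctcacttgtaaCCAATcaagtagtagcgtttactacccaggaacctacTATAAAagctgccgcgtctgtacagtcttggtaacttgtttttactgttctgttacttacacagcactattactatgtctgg
H3c3: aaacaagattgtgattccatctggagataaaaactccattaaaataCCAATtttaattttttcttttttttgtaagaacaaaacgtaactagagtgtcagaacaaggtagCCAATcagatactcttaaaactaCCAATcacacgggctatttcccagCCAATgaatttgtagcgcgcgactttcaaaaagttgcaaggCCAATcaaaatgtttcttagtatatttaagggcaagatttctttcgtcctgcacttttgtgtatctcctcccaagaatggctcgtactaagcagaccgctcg
Members that share a promoter window differed in level. Of 7 pairs of an H2A and an H2B gene read in opposite directions from overlapping windows, the pair with the widest gap was H2ac8 and H2bc8. H2ac8 had 616 CPM beside 23.3 CPM for H2bc8 in the cKO library, and 458 beside 24.1 CPM in the WT library. H2ac22 likewise had 104 CPM beside 5.53 CPM for H2bc22 in the cKO, and 92.9 beside 5.72 CPM in the WT library. The pair H2ac11 and H2bc11 ran the other way, with 13.9 beside 79.2 CPM in the cKO and 12.8 beside 64.5 CPM in the WT library. The H2A gene was the higher in 3 of the 7 pairs in both libraries.

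Few members carried most of the histone UMIs. All 59 together had 5960 CPM in the Nat10 cKO and 5104 CPM in the WT library, and the 5 highest held 56.0% of those UMIs in the cKO and 50.6% in the WT library. The median member had 27.0 CPM in the cKO and 27.8 CPM in the WT library. H1 linker histones, which bind DNA between nucleosomes, took 37.7% of the members' UMIs in the cKO and 35.0% in the WT library, though they are 5 of the 59 genes. H2A genes took 32.5% in the cKO and 30.7% in the WT library. The other core histones took less: H3 genes 10.9% in the cKO and 13.7% in the WT library, H4 genes 10.1% in the cKO and 11.2% in the WT library, and H2B genes 8.72% in the cKO and 9.44% in the WT library. These are shares of 3′ tags and say nothing of the make-up of the nucleosome, which holds its core histones in equal numbers. Reads of near-identical copies can be split or lost in counting. Of 90-base windows in the annotated transcripts, over 50% were shared with another gene in 25 members, as in H2ac24 with 92.4% and H4c17 with 88.5%, and none in H1f5, H1f1, H4c14 and H2bc21.

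**Figure D1:**
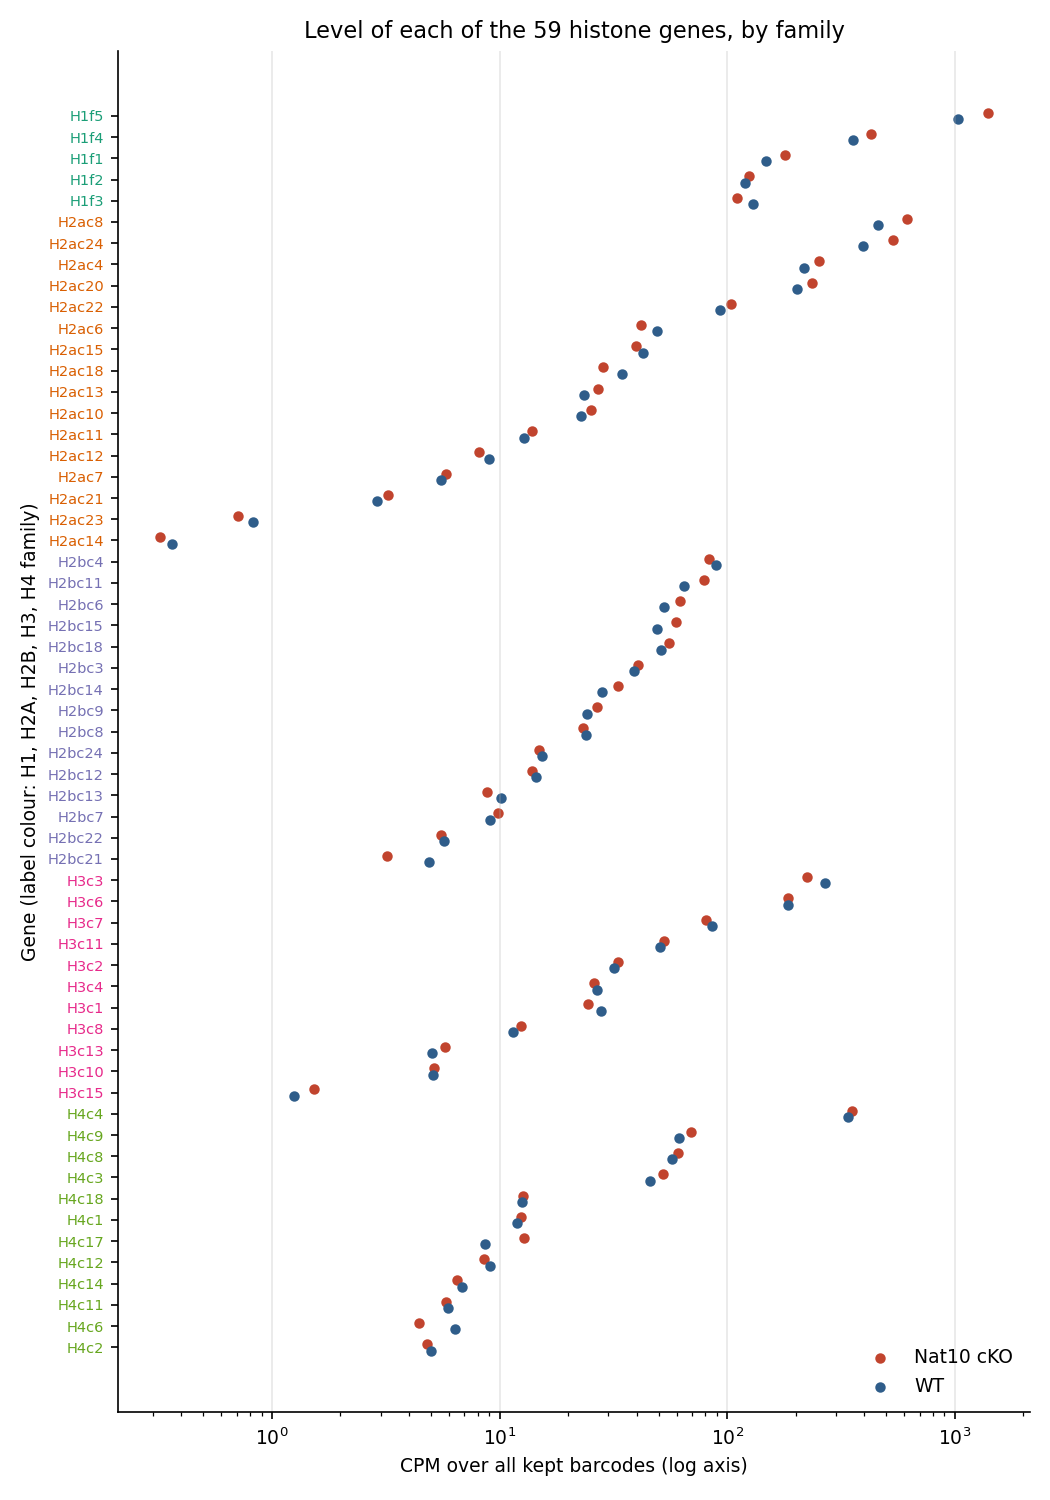
CPM of each of the 59 histone genes over all kept barcodes of the Nat10 cKO and the WT library, on a log axis. Genes are grouped by family and ordered by level within each, with labels coloured by family. H1f5 stands highest at 1403 CPM in the cKO and 1028 CPM in the WT library, and most members lie under 100 CPM in both.

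H1f5 was the highest member, with 1403 CPM in the cKO and 1028 CPM in the WT library, a log2 ratio of 0.45 (0.44 to 0.45). H2ac8 followed with 616 CPM in the cKO and 458 CPM in the WT library (0.43), and H2ac24 with 536 CPM in the cKO and 396 CPM in the WT library (0.44). H1f4 had 429 CPM in the cKO and 359 CPM in the WT library (0.26). All 4 were higher in the cKO library, where the median of all genes was at -0.10. The most counted H4 gene, H4c4, had 353 CPM in the cKO and 339 CPM in the WT library (0.06), and the most counted H3 gene, H3c3, had 223 CPM in the cKO and 268 CPM in the WT library (-0.26). H2ac4 had 253 CPM in the cKO and 216 CPM in the WT library, and H2ac20 had 236 CPM in the cKO and 202 CPM in the WT library, both at a log2 ratio of 0.22. H2bc4, the most counted H2B gene, had 83.2 CPM in the cKO and 89.3 CPM in the WT library (-0.10).

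Histone mRNA was higher in cells with more S phase mRNA. Each cell with at least 5000 UMIs was thinned to 5000, and the cells of both libraries were ordered together by 41 S phase genes, such as Mcm2, Pcna and Rrm2, that hold no histone, and cut into 5 bins. In the Nat10 cKO library the members' sum was 4120, 5515, 5604, 6157 and 8809 CPM over 5 bins of cells, lowest to highest. In the WT library it was 3364, 4477, 4717, 4968 and 7480 CPM. The log2 ratio of the highest over the lowest bin was 1.10 (1.09 to 1.11) in the cKO and 1.15 (1.14 to 1.16) in the WT library. The steps at both ends were larger than those between the middle bins in either library. Thinning left out 3175 cKO barcodes (28.2%) and 3823 WT barcodes (30.5%), whose members' sums were 5512 CPM in the cKO and 4737 CPM in the WT library.

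The order by S phase went with lineage. Erythroblast-like cells made up 66.3% of the highest S bin of the cKO and 65.6% of that of the WT library, and 0.559% of the lowest cKO bin. With erythroblast-like cells left out and the bins made anew, an alternative chosen after seeing the data, the log2 ratio was 0.77 in both libraries. Within erythroid progenitor-like cells alone it was 0.37 in the cKO and 0.42 in the WT library. How much of the overall ratio belongs to S phase and how much to lineage was not tested beyond these values.

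The members followed S phase to very different degrees. Of the 58 members with at least 50 UMIs in the outer bins of a library combined, 28 had a log2 ratio of 1 or more in the cKO library, where 9.90% of all genes did. In the WT library 38 of 58 did, against 10.5% of all genes. The median member was at 0.99 in the cKO and 1.20 in the WT library, and the median gene at -0.26 in the cKO and -0.32 in the WT library. The ratio was above 0 in both libraries for 51 of these 58 members, below 0 in both for 3 and of opposite signs for 4. Across them the 2 libraries ranked alike, with a Spearman correlation of 0.95 over 58 genes that share cell makeup and depth. H2ac14 had too few UMIs to be placed.

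By family, the median log2 ratio of the highest over the lowest S bin was 1.75 in the cKO and 1.72 in the WT library for H1, and 1.35 in the cKO and 1.49 in the WT library for H4. For H3 it was 0.999 in the cKO and 1.22 in the WT library, for H2A 0.79 in the cKO and 1.09 in the WT library, and for H2B 0.75 in the cKO and 1.02 in the WT library. The summed H1 genes had 3713 CPM in the highest and 1227 CPM in the lowest bin of the cKO library, and 2805 against 969 CPM in those of the WT library. H2A genes had 2643 against 1362 CPM in the cKO and 2196 against 1026 CPM in the WT library. H4 genes had 928 against 470 CPM in the cKO and 863 against 409 CPM in the WT library.

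The steepest members were small H4 genes and one linker histone. H4c6 had 12.1 CPM in the highest and 1.75 CPM in the lowest S bin of the cKO library, and 15.3 against 2.17 CPM in those of the WT library. Its log2 ratio was 2.77 in the cKO and 2.81 in the WT library. H4c2 had 12.6 against 1.88 CPM in the cKO (2.73) and 10.9 against 1.84 CPM in the WT library (2.56). H4c11 stood at 2.25 in the cKO and 2.47 in the WT library. H1f1 had 347 against 55.0 CPM in the cKO and 266 against 43.9 CPM in the WT library, with log2 ratios of 2.66 in the cKO and 2.60 in the WT library. H1f5 combined a high level with a steep order: 2249 CPM in the highest against 665 CPM in the lowest bin of the cKO, and 1592 against 484 CPM in the WT library. Within the H1 family the range was wide: H1f2 had 196 against 176 CPM in the cKO (0.16) and 165 against 143 CPM in the WT library (0.21).

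The members that ran the other way were H2bc4, H2ac6 and H2ac23. H2bc4 had 54.0 CPM in the highest and 189 CPM in the lowest S bin of the cKO library, and 63.2 against 162 CPM in those of the WT library. Its log2 ratio was -1.81 in the cKO and -1.35 in the WT library. H2ac6 had 35.5 against 76.1 CPM in the cKO (-1.10) and 42.0 against 76.1 CPM in the WT library (-0.86). H2ac23, with 0.707 CPM over all cKO and 0.830 CPM over all WT barcodes, stood at -0.19 in the cKO, with an interval that held 0, and at -0.66 in the WT library, but with the outer 10% of cells at 0.63 in the cKO and 1.499 in the WT library. H3c15, also rare, was at -1.05 in the cKO and 0.29 in the WT library. Among erythroid progenitor-like cells alone these orders were not kept: H2bc4 was at 0.090 in the cKO and 0.076 in the WT library, and H2ac6 at 0.32 in the cKO and 0.46 in the WT library.

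By the 2 lists used here, histone mRNA followed genes of G2 and mitosis more closely than genes of S phase. When the same thinned cells were ordered by 54 G2 and mitosis genes, such as Cdk1, Mki67 and Top2a, the members' sum over the bins, lowest to highest, was 1925, 4854, 5668, 6155 and 9163 CPM in the cKO library. In the WT library it was 1258, 3881, 4948, 5323 and 8501 CPM. The log2 ratio of the highest over the lowest bin was 2.25 in the cKO and 2.76 in the WT library, and 51 of 58 members reached 1 in the cKO, against 9.88% of all genes, and 56 of 58 in the WT library, against 9.77%. Only H2bc4 was below 0 in both libraries, with 78.4 CPM in the highest and 203 CPM in the lowest bin of the cKO, and 90.2 against 113 CPM in those of the WT library. H1f2 was again the flattest H1 gene, at 0.21 in the cKO and 1.01 in the WT library, where H1f5 was at 2.93 in the cKO and 3.47 in the WT library. Per cell, the rank correlation of the members' thinned UMIs in the cKO was 0.46 with the G2 and mitosis genes and 0.32 with the S phase genes. In the WT library it was 0.58 with the G2 and mitosis genes and 0.35 with the S phase genes. All of these counts come from the same cells and the same 5000 UMIs. The lists differ in depth. The S phase genes summed to 5320 CPM in the cKO and 5735 CPM in the WT library, and the G2 and mitosis genes to 9852 CPM in the cKO and 9867 CPM in the WT library. The order by S phase genes thus rests on fewer UMIs per cell. The part of this, and the phase in which histone mRNA is highest, was not tested.

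**Figure D2:**
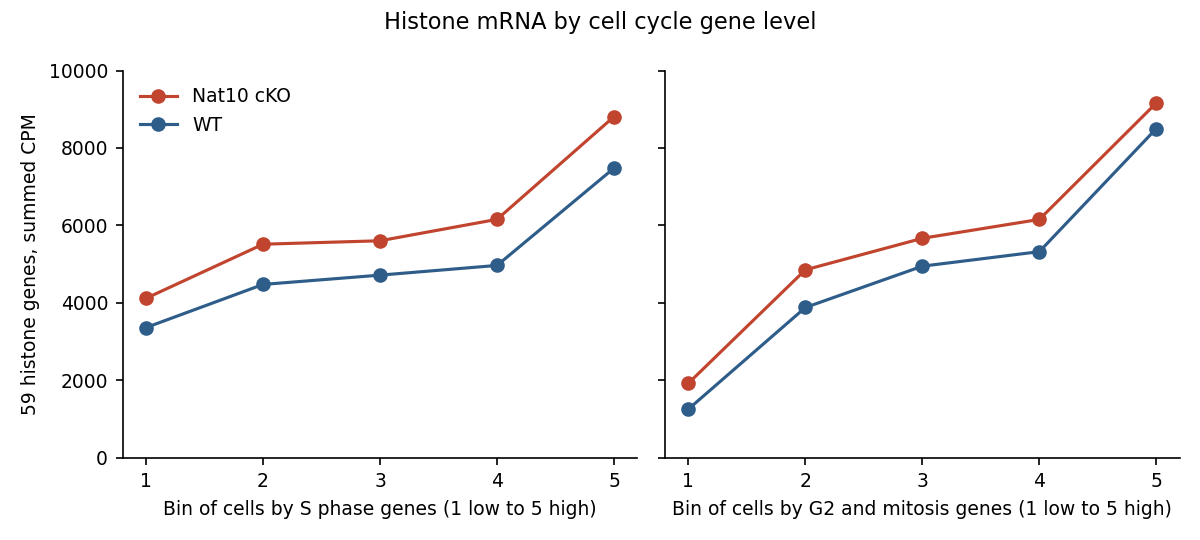
Summed CPM of the 59 histone genes in bins of cells ordered low to high by S phase genes (left) and by G2 and mitosis genes (right), for the Nat10 cKO and the WT library. The lowest bin by G2 and mitosis genes is at 1925 CPM in the cKO and 1258 CPM in the WT library, lower than the lowest bin by S phase genes at 4120 CPM in the cKO and 3364 CPM in the WT library.

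Cells high in both gene lists held the most histone mRNA. In what follows a cell is high in a list in its highest bin and low in its lowest 2. Cells high in S phase and in G2 and mitosis genes had 11254 CPM in the cKO library (667 cells) and 9716 CPM in the WT library (1082 cells). Cells low in S phase but high in G2 and mitosis genes had 7891 CPM in the cKO and 6745 CPM in the WT library. Cells high in S phase but low in G2 and mitosis genes had 4707 CPM in the cKO, from 108 cells, and 2625 CPM in the WT library, from 258 cells. Cells low in both had 2941 CPM in the cKO and 2040 CPM in the WT library. In both libraries, cells high in S phase genes alone thus held fewer histone UMIs by this scale than cells high in G2 and mitosis genes alone.

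**Figure D3:**
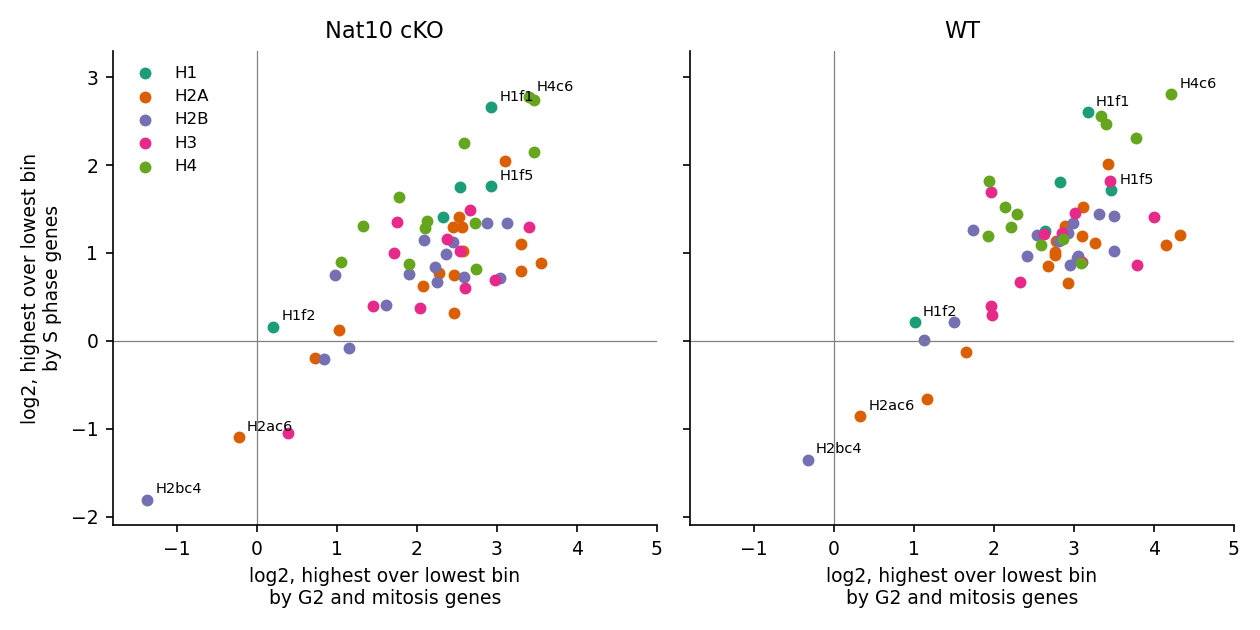
Each point is 1 of the 58 histone genes with enough UMIs in the outer S bins, coloured by family, with its log2 ratio of the highest over the lowest bin of cells by G2 and mitosis genes on the x axis and by S phase genes on the y axis, for the Nat10 cKO (left) and the WT library (right). H2bc4 lies below 0 on both axes in both libraries, and most other members lie right of and above 0.

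Within HSC/MPP-like, monocyte-like and erythroblast-like cells the ratio by G2 and mitosis genes was again above that by S phase genes. Classes join clusters, some of them unlike. With bins made anew within HSC/MPP-like cells, the stem and multipotent progenitor class, the log2 ratio by G2 and mitosis genes was 2.02 in the cKO and 2.26 in the WT library, and by S phase genes 0.28 in the cKO and 0.49 in the WT library. The sign by S phase genes depended on how the bins were made. In the S bins made over all cells, WT HSC/MPP-like cells had 2262 CPM in 40 cells of the highest against 2873 CPM in 231 cells of the lowest bin, a log2 ratio of -0.35 (-0.41 to -0.28), and the cKO library had 10 such cells in the highest bin, too few for a value. Monocyte-like cells had 2.27 in the cKO and 1.98 in the WT library by G2 and mitosis genes, but 0.12 in the cKO and 0.15 in the WT library by S phase genes. In the S bins over all cells the monocyte-like ratio was 0.33 in the cKO and -0.0076 in the WT library. Erythroblast-like cells had 1.32 in the cKO and 1.74 in the WT library by G2 and mitosis genes, and 0.69 in the cKO and 0.91 in the WT library by S phase genes. GMP and neutrophil progenitor-like cells differed: in the cKO library the ratio by S phase genes, 0.68, was above that by G2 and mitosis genes, 0.60, while in the WT library the ratio by S phase genes was 0.63 and that by G2 and mitosis genes 1.02. T, NK and innate lymphoid-like cells showed the widest gap by S phase genes, with 5111 CPM in the highest against 778 CPM in the lowest bin of the cKO, and 6118 against 491 CPM in those of the WT library. That class joins a cluster led by Ncr1 and Xcl1, whose S phase genes had 3298 CPM in the cKO and 3964 CPM in the WT library, and one led by Cd3 genes, whose S phase genes had 1520 CPM in the cKO and 1391 CPM in the WT library. The members followed that split, with 3537 CPM in the cKO and 4213 CPM in the WT library in the Ncr1-led cluster, and 1115 CPM in the cKO and 608 CPM in the WT library in the Cd3-led one. In megakaryocyte-like cells the order by S phase genes was below 0, at -0.19 in the cKO and -0.41 in the WT library.

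Single cells differed widely. In cells thinned to 5000 UMIs, the median cell had 23 histone UMIs in the cKO and 13 in the WT library. The lowest 10% of cells had at most 3 in the cKO and 2 in the WT library, and the highest 10% at least 63 in the cKO and 57 in the WT library. The highest 10% held 28.9% of all the members' UMIs in the cKO and 32.3% in the WT library. Cells with no histone UMI were 87 of the cKO (1.08%) and 176 of the WT cells (2.02%). 

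Among lineages, erythroblast-like cells had the most histone mRNA, 9089 CPM in the cKO and 8191 CPM in the WT library. These haemoglobin-making cells divide a few last times before they lose the nucleus. They also had the most S phase mRNA, 9065 CPM in the cKO and 10175 CPM in the WT library. Within the class the sum ran high in both clusters led by globin genes, with 12524 CPM in 306 cKO and 10400 CPM in 635 WT cells of one, and 12812 CPM in 103 cKO and 10850 CPM in 103 WT cells of the other. A small cluster led by Slfn14 and Tmcc2 had 2049 CPM in 40 cKO and 1694 CPM in 51 WT cells. Conventional dendritic-like cells had 6865 CPM in the cKO and 5439 CPM in the WT library, monocyte-like cells 6468 CPM in the cKO and 5259 CPM in the WT library, and basophil and mast-like cells 6815 CPM in the cKO and 4995 CPM in the WT library. Their S phase mRNA was lower, from 3260 CPM in WT basophil and mast-like to 4796 CPM in WT monocyte-like cells. Plasma-like cells were lowest, with 1459 CPM in the cKO and 1997 CPM in the WT library, and T, NK and innate lymphoid-like cells had 3042 CPM in the cKO and 2837 CPM in the WT library.

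**Figure D4:**
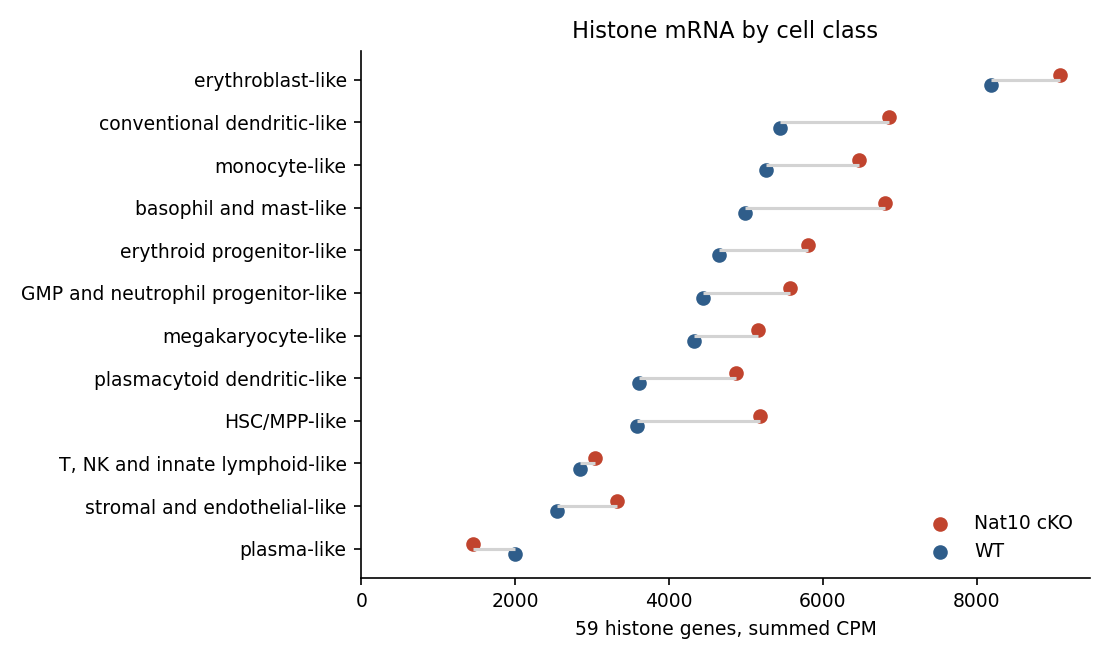
Summed CPM of the 59 histone genes in each named class with at least 50 cells in both libraries, Nat10 cKO and WT joined by a line. The cKO value is the higher in every class shown except plasma-like cells, at 1459 CPM in the cKO and 1997 CPM in the WT library.

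Most members shared 1 lineage pattern and a few did not. Over 74 clusters of at least 50 cells, taken per library, the level of a member correlated with the sum of the others at a median Spearman rho of 0.81, and 30 members were over 0.8. H1f4 was highest at 0.96, with H2ac4 and H4c4 at 0.95. The 6 members under 0.5 were H2bc4 at 0.20, H3c15 at 0.23, H2bc21 at 0.23, H2ac6 at 0.35, H2ac23 at 0.37 and H2ac14 at 0.39. These points share their libraries, and the rarest members rest on few UMIs. The steep H4 genes were the erythroblast-weighted ones: H4c6 had 12.99 CPM in cKO and 17.9 CPM in WT erythroblast-like cells, 28.9% of its CPM summed over classes.

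H2bc4, H2ac6 and H1f2 were instead high in basophil and mast-like cells, and H2bc4, H1f2 and, less so, H2ac6 also in 1 megakaryocyte-like cluster. In basophil and mast-like cells H2ac6 had 193 CPM in the cKO and 188 CPM in the WT library, where erythroblast-like cells had 34.9 CPM in the cKO and 43.5 CPM in the WT library. In the same basophil and mast-like cells H2bc4 had 275 CPM in the cKO and 288 CPM in the WT library. H1f2 had 316 CPM in the cKO and 320 CPM in the WT library there. That class joins unlike clusters too. H1f2 had 247 CPM in 325 cKO and 266 CPM in 312 WT cells of a cluster led by Cma1. In the one led by Il6 and Ccl3 it had 596 CPM in the cKO and 474 CPM in the WT library. H2ac6 had 160 CPM in the cKO and 159 CPM in the WT library in the former. In the latter it had 329 CPM in the cKO and 271 CPM in the WT library. In the megakaryocyte-like class H2bc4 had 380 CPM in the cKO and 139 CPM in the WT library, and H1f2 323 CPM in the cKO and 120 CPM in the WT library, but that class joins 2 unlike clusters. The cluster led by Ppbp, Clec1b and Treml1, genes of mature megakaryocytes and platelets, had a median of 2541 UMIs per barcode. In it H2bc4 reached 1382 CPM in the cKO (163 cells) and 416 CPM in the WT library (70 cells), and H1f2 1148 CPM in the cKO and 190 CPM in the WT library. In the other cluster, of 165 cKO and 295 WT cells, H2bc4 had 118 CPM in the cKO and 131 CPM in the WT library. H1f2 had 107 CPM in the cKO and 118 CPM in the WT library there. H2ac6 had 111 CPM in the cKO and, from 19 UMIs, 85.8 CPM in the WT library in the Ppbp-led cluster. In the other cluster H2ac6 had 39.4 CPM in the cKO and 46.3 CPM in the WT library. H1f5 ran the other way, with 431 CPM in the cKO and 483 CPM in the WT library in the Ppbp-led cluster, and 1189 CPM in the cKO and 817 CPM in the WT library in the other. The higher class values of H2bc4 and H1f2 in the cKO library thus stood in the Ppbp-led cluster, where the WT values rest on 92 UMIs of H2bc4 and 42 UMIs of H1f2.

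Between the genotypes the members' sum was higher in the Nat10 cKO library, 5960 CPM against 5104 CPM in the WT library, a log2 ratio of 0.22 (0.22 to 0.23). A few genes carried this: without H1f5, H2ac8 and H2ac24, a choice made after seeing the data, it was 0.080. The log2 ratio was 0.25 or more in 9 of 59 members, where 17.7% of 21476 genes reached it, and -0.25 or less in 4, where 33.3% did. The median member was at 0.06 and the median of all genes at -0.10. Above 0 were 36 of 59 members, against 38.9% of all genes. Scaling by TMM moves every gene up by 0.10. The members above 0 are then 48, against 50.2% of all genes, and those at 0.25 or more 21, against 25.1%. With cKO cells weighted to the WT shares of the clusters, 50 members were above 0, against 37.9% of all genes. In that setting 24 were at 0.25 or more, against 13.5%.

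By family the H1 genes had 2247 CPM in the cKO and 1784 CPM in the WT library (0.33), and the H2A genes 1940 CPM in the cKO and 1569 CPM in the WT library (0.31). The H2B genes had 519 CPM in the cKO and 482 CPM in the WT library (0.11) and the H4 genes 604 CPM in the cKO and 570 CPM in the WT library (0.08). The H3 sum was the exception, with 650 CPM in the cKO and 698 CPM in the WT library (-0.10). Most H3 genes did not share this: the median H3 gene was at 0.01, and 7 of 11 were above 0. H3c3, the most counted of them, had 223 CPM in the cKO and 268 CPM in the WT library (-0.26). The ratio of the H3 sum was -0.12 with every cell weighing alike, -0.03 by median of ratios and -0.00094 by TMM. It turned to 0.05 with cKO cells weighted to the WT cluster shares.

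The highest ratio was that of H4c17, with 12.8 CPM in the cKO and 8.59 CPM in the WT library (0.58, 0.50 to 0.65), and it was above 0 in 8 of 8 classes with enough UMIs. H1f5, H2ac24 and H2ac8 came next, H1f5 above 0 in 11 of 12 classes. The lowest was H2bc21, with 3.20 CPM in the cKO and 4.92 CPM in the WT library (-0.62, -0.74 to -0.49). H4c6 had 4.44 CPM in the cKO and 6.38 CPM in the WT library (-0.52, -0.63 to -0.42), and H2ac18 28.3 CPM in the cKO and 34.4 CPM in the WT library (-0.28). H2ac18 was above 0 in 0 of 10 classes and H3c3 in 2 of 12. H3c3 in erythroblast-like cells had 308 CPM in the cKO and 403 CPM in the WT library.

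**Figure D5:**
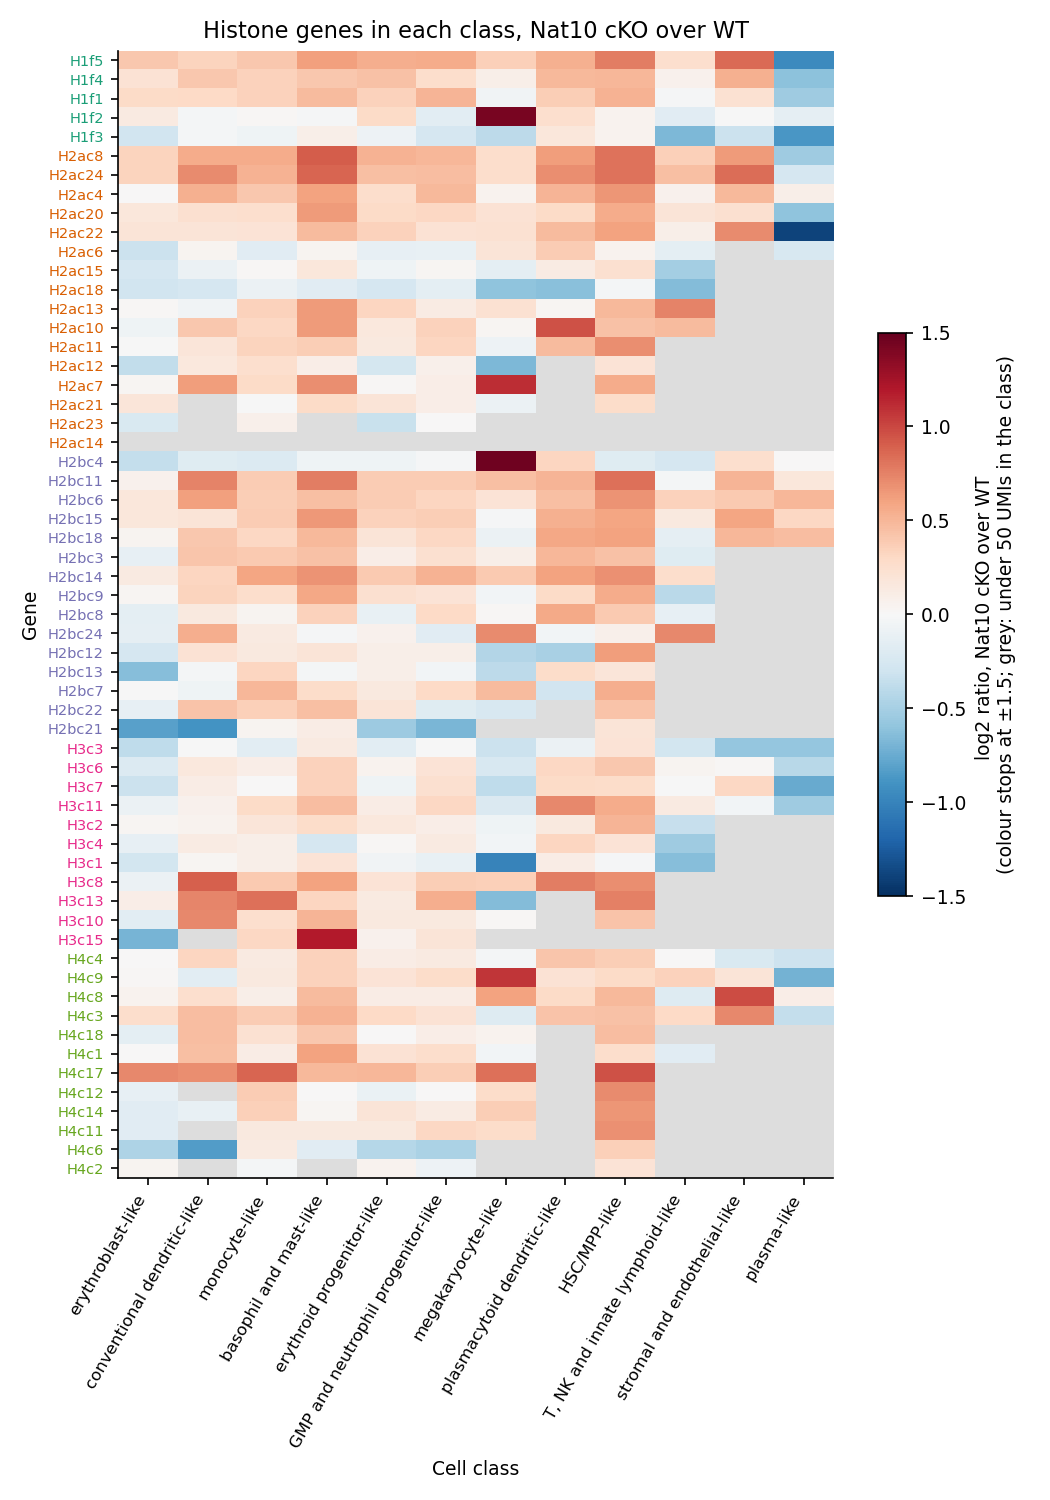
Log2 ratio of Nat10 cKO over WT for each histone gene (down) in each named class (across), with colour stopping at ±1.5 and grey where a gene had under 50 UMIs in the class. HSC/MPP-like cells are above 0 for 53 of 56 members and plasma-like cells for 7 of 24. The median of all genes was at -0.15 in HSC/MPP-like and -0.32 in plasma-like cells.

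Of the 12 classes, HSC/MPP-like cells had the largest ratio. They had 5188 CPM in the cKO (475 cells) and 3582 CPM in the WT library (799 cells), a log2 ratio of 0.53 (0.52 to 0.55). There 53 of 56 members were above 0 and 42 were at 0.25 or more, against 15.6% of all genes, and 0 were at -0.25 or less, against 38.7%. The median member was at 0.47 and the median of all genes at -0.15. H1f5 had 992 CPM in the cKO and 583 CPM in the WT library (0.77), H2ac8 570 CPM in the cKO and 323 CPM in the WT library (0.82), and H2ac24 519 CPM in the cKO and 294 CPM in the WT library (0.82). H2bc4, at 126 CPM in the cKO and 143 CPM in the WT library, was an exception (-0.18). The class is 2 clusters, which the libraries filled unequally. The cluster led by Cd34 was named from 3 detected markers, the fewest allowed, and that led by Mecom and Hlf from 9. At Leiden resolution 1.0 in place of 1.5 the class held 345 cKO and 600 WT cells, so its bounds are uncertain. The cluster led by Mecom and Hlf had 4779 CPM in 174 cKO cells and 3033 CPM in 493 WT cells (0.66), and the cluster led by Cd34 had 5385 CPM in 301 cKO cells and 4077 CPM in 306 WT cells (0.40).

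In HSC/MPP-like cells the S phase genes had 4360 CPM in the cKO and 4241 CPM in the WT library, and the G2 and mitosis genes 7637 CPM in the cKO and 6644 CPM in the WT library. With cKO cells weighted to the WT shares of the bins by G2 and mitosis genes, an alternative chosen after seeing the data, the log2 ratio was 0.32 in place of 0.53, and with S phase bins it was 0.48. Over all cells the cKO library was the higher in each bin by S phase genes, with log2 ratios of 0.29, 0.30, 0.25, 0.31 and 0.24, lowest to highest. By G2 and mitosis genes they were 0.61, 0.32, 0.20, 0.21 and 0.11. Over all cells the difference between libraries was thus largest in the cells with the least G2 and mitosis mRNA, where 51 of 55 members were above 0. In the highest bin 25 of 59 were. The median of all genes was at -0.04 in the lowest and -0.07 in the highest of these bins. With bins made anew within a class, monocyte-like and conventional dendritic-like cells did not show this order. Monocyte-like cells had 1738 CPM in the cKO and 1708 CPM in the WT library in the lowest bin. In the highest they had 8372 CPM in the cKO and 6726 CPM in the WT library. The lowest bin of conventional dendritic-like cells had 796 CPM in the cKO and 884 CPM in the WT library. In the other classes binned so, the ratio was larger in the lowest than in the highest bin.

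Erythroid progenitor-like cells had 5801 CPM in the cKO (2370 cells) and 4646 CPM in the WT library (1527 cells), a log2 ratio of 0.32. There 44 of 58 members were above 0 and 16 at 0.25 or more, against 11.1% of all genes at 0.25 or more. The median member was at 0.14 and the median of all genes at -0.09. Each of the 4 clusters of that class was above the class value, at 0.79 (1019 cKO and 262 WT cells), 0.42 (703 and 428), 0.42 (413 and 496) and 0.35 (235 and 341). GMP and neutrophil progenitor-like cells had 5573 CPM in the cKO and 4441 CPM in the WT library (0.33), with 23 of 58 at 0.25 or more, against 16.3%. Basophil and mast-like cells were at 0.45, with 38 of 56 at 0.25 or more, against 19.8%. Monocyte-like cells had a log2 ratio of 0.30 with 30 of 58 at 0.25 or more, against 14.2%. Of their clusters, that with 365 cKO and 379 WT cells was at 0.68, that with 99 cKO and 568 WT cells at 0.32 and that with 182 cKO and 434 WT cells at 0.17. Plasmacytoid dendritic-like cells were at 0.43 with 30 of 41, against 19.3%. The plasmacytoid dendritic-like class is 1 cluster led by Dntt and Arpp21, with Cox6a2 and Siglech among its 10 leading genes. Clustered at Leiden resolutions 1.0 and 2.0 in place of 1.5, the cluster led by Dntt and Arpp21 was named lymphoid progenitor-like, so the name is uncertain. In each of these classes the members' share at 0.25 or more was above that of all genes. Members at -0.25 or less were few: 5 in erythroid progenitor-like cells, against 26.6% of all genes, 2 in GMP and neutrophil progenitor-like cells, against 36.5%, 1 in basophil and mast-like cells, against 26.1%, 0 in monocyte-like cells, against 21.2%, and 3 in plasmacytoid dendritic-like cells, against 30.2%. Conventional dendritic-like cells had 24 of 52 members at 0.25 or more, against 18.5% of all genes, and 3 at -0.25 or less, against 26.4%. Stromal and endothelial-like cells had 13 of 23 at 0.25 or more, against 28.7%, and 2 at -0.25 or less, against 27.4%, but their 2 clusters ran opposite ways. The cluster led by Col1a1 and Bglap, genes of bone-forming cells, had 3825 CPM in 110 cKO and 2133 CPM in 100 WT cells (0.84). The cluster led by Fabp4 and holding Kdr, an endothelial receptor, had 1882 CPM in 65 cKO and 3110 CPM in 31 WT cells (-0.72). Megakaryocyte-like cells, with 17 of 53 at 0.25 or more, against 23.6%, and 9 at -0.25 or less, against 36.2%, lay nearer the background. So did T, NK and innate lymphoid-like cells, with 10 of 37 at 0.25 or more, against 27.9%, and 8 at -0.25 or less, against 23.9%. Plasma-like cells were the exception among the 12 classes, with a ratio of -0.45 (-0.53 to -0.37) over 97 cKO and 52 WT cells, and 14 of 24 members at -0.25 or less, against 57.5% of all genes, a share near the background, and 3 at 0.25 or more, against 10.2%. The median member was at -0.39 and the median of all genes at -0.32. S phase genes in plasma-like cells had 1178 CPM in the cKO and 1973 CPM in the WT library. In the plasma-like cells of the lowest S bin over all cells, the members had 1248 CPM in 80 cKO and 1192 CPM in 37 WT cells, a log2 ratio of 0.07 with an interval that held 0 (-0.04 to 0.17).

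Erythroblast-like cells, at 0.15, had the smallest ratio above 0 after T, NK and innate lymphoid-like cells, at 0.10. In them 27 of 58 members were above 0, 6 were at 0.25 or more, against 17.6% of all genes, and 13 at -0.25 or less, against 21.2%. The median member was at -0.04 and the median of all genes at -0.03. Cluster by cluster the ratio was larger than in the class as a whole. In the erythroblast-like cluster of 570 cKO and 382 WT cells it was 0.52, with 7256 CPM in the cKO and 5075 CPM in the WT library. In the larger globin-led cluster, of 306 cKO and 635 WT cells, it was 0.27. The WT library thus had more of its erythroblast-like cells than the cKO library in that cluster, whose histone level was the higher of these 2. Over the 39 clusters with at least 20 cells in both libraries, the interval of the ratio lay above 0 in 34, below 0 in 4 and held 0 in 1, and the median ratio was 0.40.

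Members are short genes, and short genes as a whole differed from the rest. Of the 59 members 55 span under 3 kb, with a median of 530 bases. The median log2 ratio of other genes under 3 kb was -0.05 over all kept barcodes, where all genes were at -0.10, and of 0.03 in HSC/MPP-like cells, where all genes were at -0.15. In HSC/MPP-like cells 30.6% of those short genes were at 0.25 or more, against 15.6% of all genes, and 42 of 56 members were. At -0.25 or less were 31.0% of those short genes, against 38.7% of all genes. In erythroid progenitor-like cells 22.8% of the short genes were at 0.25 or more, against 11.1% of all genes, and 16 of 58 members were. Over all kept barcodes 24.5% of the short genes were, against 17.7% of all genes, and 9 of 59 members were. The part of gene length in the members' ratios was not tested further.

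Some genes that serve histone supply followed S phase closely, while their sums were near 0 between genotypes. Slbp, the stem-loop-binding protein, had 472 CPM in the highest and 84.2 CPM in the lowest S bin of the cKO library, and 486 against 78.3 CPM in those of the WT library. Its log2 ratio was 2.49 in the cKO and 2.63 in the WT library. Of all genes 9.90% reached a log2 ratio of 1 in the cKO and 10.5% in the WT library. Of 18 genes for transcription and processing of histone mRNA, Slbp included, 4 did in each library. The others were Casp8ap2, which works at the nuclear body, at 1.71 in the cKO and 1.65 in the WT library, and Npat, at 1.26 in the cKO and 1.08 in the WT library. Eri1, an exonuclease that trims the stem-loop end, was at 1.13 in the cKO and 1.08 in the WT library. Of 18 genes for histone chaperones, their partners and the acetylase Hat1, 9 reached 1 in the cKO and 10 in the WT library. The shares of all genes are again 9.90% in the cKO and 10.5% in the WT library. Tonsl was at 2.64 in the cKO and 2.75 in the WT library, and Chaf1b, a subunit of the chromatin assembly factor, at 2.22 in the cKO and 2.34 in the WT library. Nasp, a chaperone of H3 and H4, was at 1.61 in the cKO and 1.83 in the WT library. Between genotypes the summed processing genes were at -0.07 and the chaperones at 0.03. Slbp had 219 CPM in the cKO and 235 CPM in the WT library (-0.10).

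Replacement variants, mostly made also outside S phase from genes with polyadenylated mRNAs, rose weakly with S phase or fell. The median variant was at -0.46 in the cKO and -0.37 in the WT library. The median of all genes was at -0.26 in the cKO and -0.32 in the WT library. Of 10 such genes 0 reached 1 by S phase, against 9.90% of all genes in the cKO and 10.5% in the WT library. In both libraries 4 were at -1 or less. Of all genes 32.8% were at -1 or less in the cKO and 33.9% in the WT library, so both counts are near the background. The highest were H3f3a, at 0.44 in the cKO and 0.43 in the WT library, and H2az1, at 0.42 in the cKO and 0.44 in the WT library. Macroh2a1 had 206 CPM in the highest and 927 CPM in the lowest S bin of the cKO library, and 297 against 1069 CPM in those of the WT library. H1f0, a linker histone of resting and differentiated cells, was at -1.11 in the cKO and -1.16 in the WT library. H2az1, the H2A.Z variant, had 1876 CPM in the cKO and 1562 CPM in the WT library (0.26). As a sum the variants were at 0.08 between genotypes. Of the 10, 1 was at 0.25 or more, against 17.7% of all genes, and 3 at -0.25 or less, against 33.3%. Those 3 were H1f10 (-0.51), Macroh2a2 (-0.46) and H1f0 (-0.43).

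The genes whose level over the 74 cluster points was most like the members' sum, of 8903 genes with at least 5000 UMIs are given next, and 4 of these 8 are in the list of G2 and mitosis genes used above. Hmgb2, a chromatin protein, led with a Spearman rho of 0.87. Birc5 and Cdca8, subunits of the chromosomal passenger complex, had 0.81 and 0.79, and Ccnb2, a mitotic cyclin, 0.78. Sgo2a, a shugoshin that guards centromeres, had 0.78, Spc24, of the kinetochore, 0.76, Atp5h, a subunit of the mitochondrial ATP synthase, 0.78 and H2az1 0.77. The summed G2 and mitosis genes, to which Hmgb2, Birc5, Cdca8 and Ccnb2 belong, had 0.72 and the summed S phase genes 0.59. These are descriptions over clusters that share their libraries.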

How the data were processed

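Each genotype had 1 library of 3′ tags made with the droplet kit version 3.1. The counts are UMIs per gene and barcode as the authors deposited them, and per the submitters' processing notes they were made with Cell Ranger 7.1.0 on mm39. The rule that made a barcode a cell was not given in the sources used here. Groups came from the genotype labels.

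Kept barcodes had 1000 or more UMIs, 500 or more genes and no more than 10% mitochondrial UMIs, 11239 of 13479 in the Nat10 cKO and 12537 of 15848 in the WT library. UMIs were summed over cells and given as CPM, and log2 ratios had 0.5 added to each sum. Intervals are exact (Poisson, or conditional binomial for ratios) at 95% and cover counting error only. A gene entered a ratio with at least 50 UMIs in both sums together. No test between genotypes was made. Cells of at least 5000 UMIs were thinned to 5000 and cut into 5 bins over both libraries together by the summed list genes.

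Scrublet, as in scanpy 1.11.5, called 539 cKO barcodes (4.80%) and 637 WT barcodes (5.08%) doublets, which were kept, and removed in an alternative. Clusters were made without integration and without histone, S phase and G2 and mitosis genes (10000 UMIs per cell, log scale, 2000 variable genes, 30 components, 15 neighbours, Leiden resolution 1.5, leidenalg 0.10.2). A cluster was named "-like" from at least 3 detected markers, by rules partly set after the clusters were seen, and 12 clusters with 3072 cKO and 3485 WT barcodes stayed unnamed. Numbers were computed with Python 3.11.15, numpy 2.4.6 and scipy 1.17.1, and TMM factors with edgeR 4.0.16 in R 4.3.3. The scripts were tested on simulated data. The members and gene lists were chosen with earlier results of these data known. Named members are the 8 highest and the highest of each family, the 4 at each end by S phase and by genotype, and the 2 most unlike by lineage. Members named outside this rule, such as H1f2, and clusters singled out were chosen after their values were seen. Sequences are from RefSeq (GRCm38.p6) and GENCODE M21, matched by symbol and by gene ID, and no coordinate was carried over to mm39.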

Additional observations from a re-analysis of the deposited data

Results flagged for a closer look

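Plasma-like cells ran against the other classes. Their log2 ratio of the members' sum was -0.45 (-0.53 to -0.37), with 1459 CPM in 97 Nat10 cKO and 1997 CPM in 52 WT cells, while the other 11 classes were above 0. The genes as a whole were also lower in the cKO plasma-like cells. The median of all genes was at -0.32 there, against -0.15 to 0.01 in the other 11 classes, and the median member at -0.39. Of all genes 57.5% were at -0.25 or less in plasma-like cells. The difference between classes was not tested, since each class has 1 library per genotype. Of the WT cells, 8 formed a cluster with 0 cKO cells. In the cluster that both libraries filled, with 97 cKO and 44 WT cells, the ratio was -0.34. In plasma-like cells of the lowest S bin, the members had 1248 CPM in 80 cKO and 1192 CPM in 37 WT cells, a ratio of 0.07 (-0.04 to 0.17). G2 and mitosis genes in the class had 2635 CPM in the cKO and 4775 CPM in the WT library, and their part in the result was not tested.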

How the results depend on the processing

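No paired analysis was possible because each genotype has 1 library and cells are not mapped to mice. None of the 6 main values was counted as reversed under the settings tried. That count took only genotype values of at least 0.25 in size and S ratios of at least 1. The genotype ratio of the sum, 0.22, and the median member, 0.06, could therefore not enter it, and their values are given below. Of the alternatives to the main values, 45 lay outside the counting interval set for the main value and 11 within it. The log2 ratio of the highest over the lowest S bin in the cKO library, 1.10, was 1.07 with cells thinned to 2000 UMIs, 1.35 without thinning, 1.97 with the outer 10% of cells, 1.43 with every cell weighing alike, 1.16 without Scrublet calls, 0.37 in erythroid progenitor-like cells, 1.12 with haemoglobin and members left out of the totals and 0.77 without erythroblast-like cells. In the WT library, 1.15 became 1.19, 1.29, 2.12, 1.57, 1.21, 0.42, 1.19 and 0.77 under the same settings in the same order. The genotype ratio of the sum, 0.22, was 0.33 by TMM, 0.30 by median of ratios, 0.29 with cells weighing alike, 0.24 without Scrublet calls, 0.25 with S bins matched, 0.22 with G2 and mitosis bins matched, 0.34 with clusters matched and 0.080 without H1f5, H2ac8 and H2ac24. The median member, 0.06, was 0.16 by TMM, 0.13 by median of ratios, 0.10 with cells weighing alike and 0.21 with clusters matched. In HSC/MPP-like cells 0.53 became 0.69 by TMM, 0.67 by median of ratios, 0.65 with cells weighing alike, 0.48 with S bins matched, 0.32 with G2 and mitosis bins matched, 0.49 with clusters matched, 0.38 without the 3 genes, and 0.72 and 0.63 at Leiden resolutions 1.0 and 2.0. In erythroid progenitor-like cells 0.32 became 0.42 by TMM and by median of ratios, 0.36, 0.34, 0.44 and 0.18 with cells alike, S bins matched, clusters matched and the 3 genes left out, and 0.42 and 0.27 at the 2 resolutions. The sets matched on G2 and mitosis bins, on clusters within a class, and without erythroblast-like cells or the 3 genes were chosen after seeing the data. Members at 0.25 or more numbered 9, but 21 by TMM, 17 by median of ratios and with cells alike, and 24 with clusters matched, where the share of all genes was 17.7% but 25.1%, 23.0%, 24.7% and 13.5%; those at -0.25 or less numbered 4, but 2, 2, 6 and 3. Members above 0 numbered 36, but 48, 44, 45 and 50 under these settings. The share of all genes above 0 was 38.9%, but 50.2%, 46.9%, 45.4% and 37.9% in the same order. Of named members whose S ratio was past 1 in either direction, 3 changed sign, in erythroid progenitor-like cells alone: H2bc4 at 0.090 in the cKO and 0.076 in the WT library, H2ac6 at 0.32 and H3c15 at 0.66 in the cKO. Smaller ratios changed sign too, as H2ac6 at 0.46 and H3c15 at -0.36 in the WT library there. The causes were not tested. One library per genotype limits every genotype value, and members under 10 CPM rest on few UMIs per class.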

Other observations

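Small myeloid clusters outside the comparison of classes held very different histone levels in the libraries. A neutrophil-like cluster led by Retnlg, Ngp and Camp had 8260 CPM in 31 Nat10 cKO cells and 1363 CPM in 34 WT cells, a log2 ratio of 2.60. An eosinophil-like cluster led by Prg2, Prg3 and Ear1 had 6458 CPM in 41 cKO and 2319 CPM in 175 WT cells (1.48). Of the 2 clusters of T, NK and innate lymphoid-like cells, the one led by Ncr1 and Xcl1 was lower in the cKO library, with 3537 CPM in the cKO and 4213 CPM in the WT library. The one led by Cd3 genes had 1115 CPM in the cKO and 608 CPM in the WT library. These rest on few cells of 1 library per genotype and were singled out after their values were seen.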
